A study of Mus musculus with 4 samples.

Results

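The stretch of mouse chromosome 18 described here runs from 36.9 to 38.15 Mb in the mm8 build and is named for the clustered protocadherin genes. It was chosen by these coordinates and cut into 4 kb tiles. The 312 full tiles are described, out of 657686 that cover chromosomes 1 to 19, X and Y. The last 2000 bases fall in a tile that crosses the border and enter the region totals only. The region was proposed after an H3K9me3 tile within it, at 37892001, was already known to be high. Its H3K9me3 values, the calls of tiles included, are therefore given as a description only.

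Chromatin immunoprecipitation followed by sequencing was carried out in MDER 10T cells, mouse fibroblasts that by the series title carry an estrogen-inducible MyoD1. There was 1 library for H3K9me3 (antibody AB8898), 1 for H3K27me3 (AB6002), 1 for H3K4me3 (AB8580) and 1 of whole-cell extract (WCE), which skipped the antibody step. All 4 came from cells in DMEM/F12 free of phenol red with 10% FCS, and no estrogen treatment is named. With 1 library per group there is no replicate spread, every interval covers counting error only, and a test sets 1 library against another, never 1 condition against another.

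Clustered protocadherins are cell-surface adhesion proteins, best known from neurons. There, each cell typically uses its own choice of promoters of the cluster, and the resulting proteins recognise like proteins on other cells. In cells that do not use a promoter of the cluster it is typically kept silent, with DNA methylation and H3K9me3 among the features described there. H3K4me3 typically marks active promoters, and H3K27me3 marks genes silenced by Polycomb.

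In the RefSeq gene table (GRCm38.p6), the genes follow each other along chromosome 18 as 14 alpha genes (Pcdha1 to Pcdhac2), 22 beta genes (Pcdhb1 to Pcdhb22) and 22 gamma genes (Pcdhga1 to Pcdhgc5). Slc25a2, a mitochondrial carrier gene, and Taf7, which encodes a subunit of the general transcription factor TFIID, lie between beta and gamma. Zmat2 and Hars2 precede the alpha genes. Diaph1, an actin regulator of the formin family, and Hdac3, a histone deacetylase, follow the gamma genes. That build is not the one of the read positions, so no tile was assigned to a gene or to a sub-cluster. The name of the region therefore could not be checked against the reads, and values are given by mm8 position, with the region cut into 5 segments of 250 kb and 25 of 50 kb. Likewise, the fibroblast label could not be checked, because no expression was measured.

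The 4 libraries held 2101444 (H3K9me3), 2933567 (H3K27me3), 3086567 (H3K4me3) and 2977697 (WCE) autosomal reads with 1 position, counted once per position and strand. The region held 1485 H3K9me3, 1405 H3K27me3, 2515 H3K4me3 and 1595 WCE reads. A ratio below divides a mark's reads by WCE reads, both scaled to the same autosomal total, and stands with its 95% exact interval.

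Taken whole, the region carried more H3K9me3 and less H3K27me3 relative to WCE than the 1 Mb on each side. The H3K9me3 ratio was 1.32 (1.23 to 1.42) in the region, against 0.976 (0.911 to 1.05) in the lower-coordinate flank and 1.04 (0.974 to 1.11) in the higher-coordinate flank. The region's ratio was 1.31 times (1.20 to 1.42) that of both flanks together. Among 1859 consecutive autosomal blocks of the same length with at least 500 WCE reads, 86 had an H3K9me3 ratio at least as high, and the median block was at 0.951. The region was proposed with a high H3K9me3 tile in it already known, so this rank is a description only.

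The H3K27me3 ratio was 0.894 (0.832 to 0.961) in the region, against 1.45 (1.37 to 1.54) in the lower-coordinate flank and 1.39 (1.31 to 1.47) in the higher-coordinate flank. The region stood at 0.629 times (0.579 to 0.684) both flanks. It did not stand apart from the genome in this mark, since the median block had a ratio of 0.893 and 929 of 1859 blocks were at least as high. The flanks were the parts that were high. Scaling by the median over 100 kb bins put the region's own H3K27me3 ratio at 1.11, above 1, while the comparison with the flanks does not depend on the scaling.

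For H3K4me3 the region's ratio was 1.52 (1.43 to 1.62), against 1.57 (1.48 to 1.66) in the lower-coordinate flank and 1.14 (1.08 to 1.21) in the higher-coordinate flank. It thus exceeded the higher-coordinate flank 1.33 times (1.22 to 1.45), and its interval overlapped that of the lower-coordinate flank. Against both flanks it stood at 1.13 times (1.05 to 1.22), a value that rests on 1 tile: without the tile at 37932001 it was 0.991 (0.918 to 1.07). With flanks of 500 kb it was 0.923. Of the 1859 autosomal blocks, 130 had an H3K4me3 ratio at least as high as the region's 1.52, and the median block was at 0.835.

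Read density itself was lower in the region. WCE had 1276 reads per Mb there, against 2107.5 in the flanks, or 0.605 times (0.571 to 0.642). By the same count without WCE, H3K9me3 density was 0.791 times that of the flanks, H3K4me3 0.684 times and H3K27me3 0.381 times. No WCE read fell in 43 of 312 region tiles (13.8%), against 2 of 250 tiles of the lower-coordinate flank and 0 of 250 of the other. The part of mappability or base composition in this was not tested. The median tile of the region held 3 H3K9me3, 3 H3K27me3, 2 H3K4me3 and 4 WCE reads, so most single tiles are too shallow to show a difference.

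**Figure D1:**
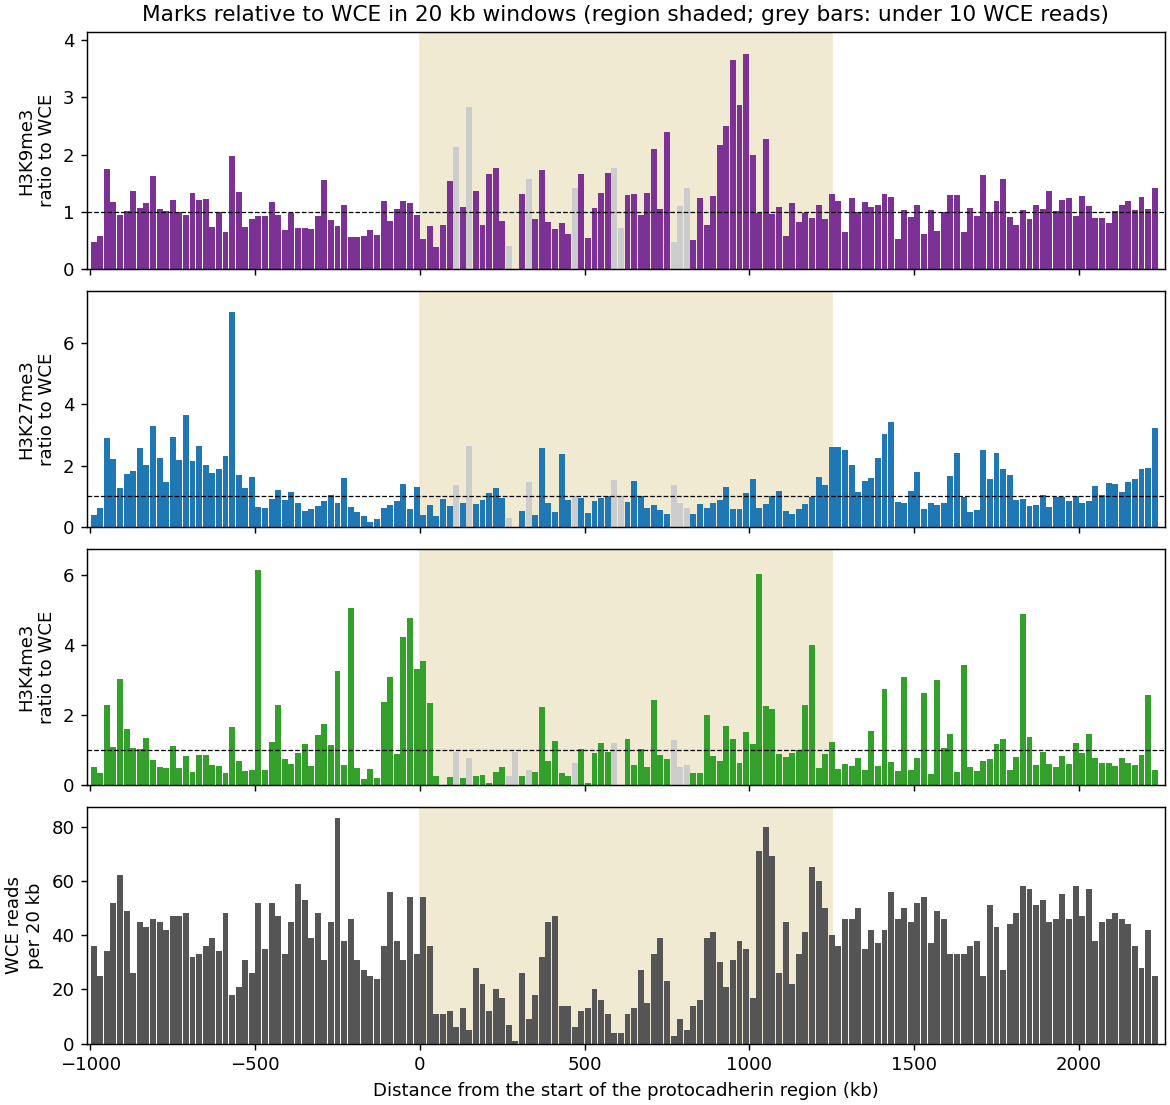
Ratio of each mark to WCE (upper 3 panels) and WCE reads (lowest panel) in 20 kb windows, against distance in kb from the start of the region, which is shaded; grey bars have under 10 WCE reads and are unreliable. H3K9me3 is highest in a run 900 to 1020 kb from the start, H3K27me3 is higher in the flanks than in the region, and H3K4me3 forms narrow peaks near the ends and few in the interior.

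**Figure D2:**
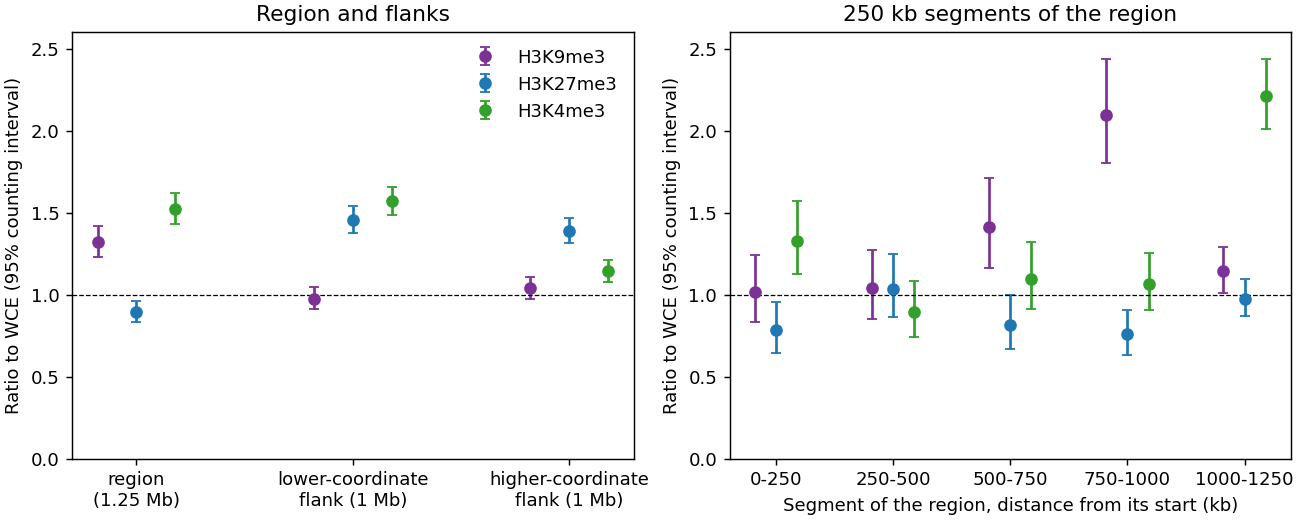
Mark-to-WCE ratios (points) with 95% exact counting intervals (bars) in the region and its 1 Mb flanks (left) and in the 250 kb segments of the region (right), with 1 library per mark. H3K9me3 was highest in the segment 750 to 1000 kb from the start (2.09), H3K4me3 in the last (2.21), and H3K27me3 was below its flank values in all 5 segments.

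H3K9me3 was unevenly spread over the region. In order of position, the 250 kb segments had ratios of 1.02 (0.832 to 1.24), 1.04 (0.850 to 1.27), 1.41 (1.16 to 1.71), 2.09 (1.80 to 2.44) and 1.14 (1.01 to 1.29). The first pair of segments is thus near 1, and the fourth, from 37650001 to 37900000, is highest, with 430 H3K9me3 and 291 WCE reads.

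At 50 kb, the segment from 37850001 to 37900000 held 211 H3K9me3 and 83 WCE reads, a ratio of 3.6 (2.78 to 4.70). Of 44013 autosomal segments of that length with at least 20 WCE reads, 5, itself included, had an H3K9me3 ratio at least as high. This segment holds the tile known to be high when the region was proposed, so its rank is a description only. Its neighbours from 37800001 and from 37900001 had ratios of 2.40 (1.78 to 3.26) and 1.88 (1.49 to 2.37). The lowest of the 25 segments was the first, with 41 H3K9me3 and 95 WCE reads (0.612, 0.413 to 0.891).

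In 20 kb windows, the ratio stayed at 1.5 or above over 120 kb without a break, from 37800001 to 37920000. This was the only such run of 3 or more windows for H3K9me3 in the region or its flanks. The run includes the tile known to be high when the region was proposed, so it too is a description only. It held 357 H3K9me3 and 172 WCE reads (2.94, 2.45 to 3.55) and, with 24% of the region's H3K9me3 reads, 10.8% of its WCE reads. The other marks were near WCE there, with 157 H3K27me3 reads (0.927, 0.741 to 1.16) and 202 H3K4me3 reads (1.13, 0.920 to 1.40). For comparison, the median autosomal 50 kb segment had a ratio of 0.945 for H3K9me3, 0.807 for H3K27me3 and 0.559 for H3K4me3. Set directly against the other immunoprecipitated libraries, without WCE, H3K9me3 was 3.17 times (2.62 to 3.85) H3K27me3 and 2.6 times (2.18 to 3.10) H3K4me3 in the run. Direct ratios between marks, here and below, are scaled to the same autosomal totals. Their usual level over the genome is not given, and the medians above show that it need not be 1, least of all against H3K4me3.

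The whole-region value rests on this part of the region. Without the 160 kb from 37800001 to 37960000, which hold the run and the other called H3K9me3 tiles described next and were picked after their values were seen, the region's H3K9me3 ratio was 1.06 (0.973 to 1.15), and 1.05 times (0.952 to 1.16) that of the flanks.

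A tile was called when a one-sided exact binomial test against WCE over all tiles of the genome, with Benjamini-Hochberg adjustment, gave an adjusted p under 0.05 and the ratio was at least 2. For H3K9me3, 3 of 312 region tiles were called, while 0.0195% of tiles were called over the genome, and 0 of 250 tiles in each flank. One of the 3 is the tile known when the region was proposed, so nothing is read from this count.

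That tile, at 37892001, held 45 H3K9me3, 17 H3K27me3, 17 H3K4me3 and 5 WCE reads. The H3K9me3 ratio to WCE was 12.8 (5.08 to 41.2), with a wide interval because WCE had few reads. The other marks were also above WCE in the tile, at 3.45 (1.22 to 12) for H3K27me3 and 3.28 (1.16 to 11.4) for H3K4me3, without being called. Set directly against them, H3K9me3 was 3.70 times (2.07 to 6.89) H3K27me3 and 3.89 times (2.18 to 7.25) H3K4me3. Of its H3K9me3 reads, 21 were forward and 24 reverse, and 46 were listed before repeats were removed, so few positions were repeated.

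The other called H3K9me3 tiles adjoin each other beyond the run. At 37940001 there were 49 H3K9me3 and 21 WCE reads (3.31, 1.95 to 5.80), and at 37944001 there were 37 and 14 (3.74, 1.98 to 7.50). The first was also called for H3K4me3, with 73 reads (3.35, 2.04 to 5.74; exact test, adjusted p = 4.84e-06). Within it the marks did not peak in the same 500 bp, since H3K9me3 was highest from 37942001 (15 reads) and H3K4me3 from 37941001 (17 reads).

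Smaller H3K9me3 rises lay elsewhere in the interior and were not called. The 50 kb segment from 37600001 held 110 H3K9me3 and 86 WCE reads (1.81, 1.35 to 2.43). In it, the tile at 37644001 held 21 H3K9me3 and 6 WCE reads, and the tile at 37612001 held 14 and 3. Near the other end, the tile at 37064001 held 14 and 4. These 3 tiles were picked after their values were seen. Over all 202 region tiles, the run included, with at least 3 WCE reads, 37 had an H3K9me3 ratio of 2 or more (18.3%), against 10.9% and 9.35% of such tiles in the lower- and higher-coordinate flanks and 8.65% over the genome. Without the tiles from 37800001 to 37960000, 17 of 165 remained (10.3%), near the shares of the flanks. The median tile ratio was 0.978 in the region, against 0.945 and 1.02 in the flanks and 0.850 over the genome.

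**Figure D3:**
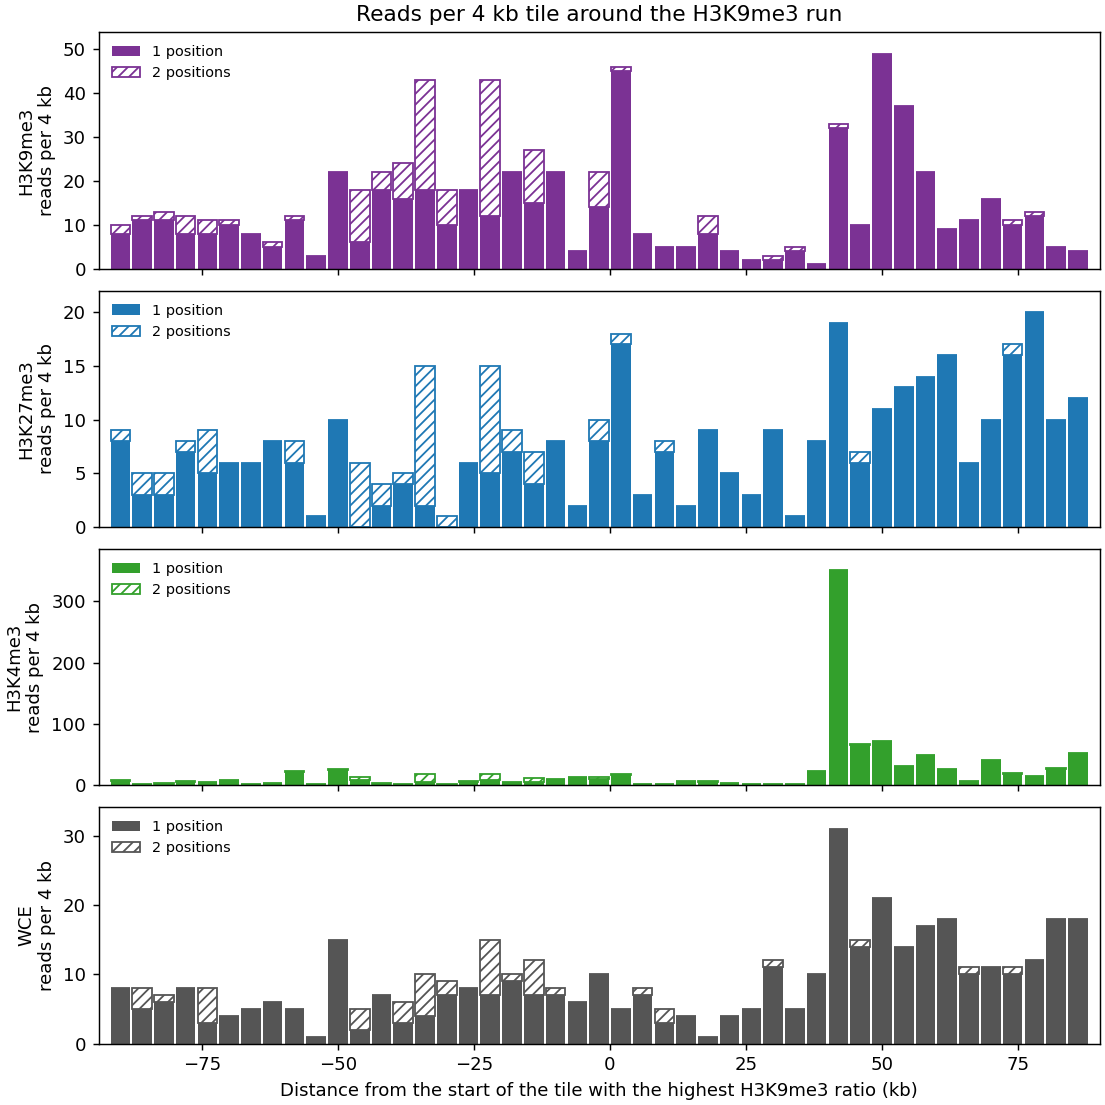
Reads per 4 kb tile in the 3 mark libraries and WCE around the H3K9me3 run, against distance in kb from the start of the tile at 37892001; solid bars are reads with 1 position and hatched bars reads with 2. H3K9me3 is raised over many neighbouring tiles, has few reads between the tile at 0 kb and the H3K4me3 peak of 350 reads, where WCE has few reads too at first, and more again at and beyond that peak.

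Reads with 2 positions bear on what can be measured in families of similar genes. They were kept out of all counts above. They made up 16.9% (15.2 to 18.8%) of the listed H3K9me3 reads in the region, 11.1% of H3K27me3, 6.40% of H3K4me3 and 8.91% (7.62 to 10.3%) of WCE. In the flanks the shares were lower, at 4.21%, 2.58%, 2.87% and 3.50% in the same order. The region's share thus exceeded that of the flanks in WCE too, a library without antibody. Each such read is listed at both of its positions, so a read with both in the region enters 2 times. Intervals for these reads treat listings as separate reads, and are too narrow where this happens.

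Many of these reads lay within the H3K9me3 run. From 37844001 to 37880000, 36 kb picked after the values were seen, there were 100 H3K9me3, 38 H3K27me3, 45 H3K4me3 and 28 WCE reads with 2 positions. The H3K9me3 ratio of these reads, scaled by the autosomal totals of reads with 1 position, was 5.06 (3.30 to 8.0). It was 3.54 (2.57 to 4.95) for the reads with 1 position in the same 36 kb. Over the autosomes, reads with 2 positions made up 6.50% of the listed H3K9me3 reads and 5.56% of WCE. The genome level of the first ratio thus lies above 1. Both kinds of read were high for H3K9me3 in these 36 kb, which the choice of the stretch favours. Each read with 2 positions is listed at both, so its place of origin is not known. With both kinds of read counted, the H3K9me3 ratio of the whole region was 1.43 (1.34 to 1.53).

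H3K27me3 was low to average through the region and raised outside it. In order of position, the 250 kb segments had ratios of 0.786 (0.647 to 0.955), 1.04 (0.862 to 1.2), 0.817 (0.666 to 1.0), 0.760 (0.635 to 0.909) and 0.975 (0.869 to 1.09). Scaling by 100 kb bins put them at 0.975, 1.29, 1.01, 0.943 and 1.21, so that 3 of 5 were then above 1. Of 62 windows of 20 kb in the region, 6 reached a ratio of 1.5, against 41 of 99 in the flanks. In the lower-coordinate flank a run of such windows covered 220 kb from 36140001 to 36360000, with 1033 H3K27me3 and 403 WCE reads (2.6, 2.32 to 2.93).

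At the higher-coordinate border, the H3K27me3 rise began inside the region. The last 50 kb segment, from 38100001, held 212 H3K27me3 and 137 WCE reads and was the highest of the 25 (1.57, 1.26 to 1.96). A run of 20 kb windows crossed the border, from 38140001 to 38220000, with 400 and 168 reads (2.42, 2.01 to 2.91). The lowest segment, from 37700001, held 15 and 30 (0.508, 0.254 to 0.973).

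The tiles at the borders were as follows. Just inside the lower border, the first region tile held 6 H3K9me3, 2 H3K27me3, 5 H3K4me3 and 7 WCE reads, and just outside it the tile at 36896001 held 8, 6, 3 and 6. Just inside the upper border, the tile at 38144001 held 6, 18, 8 and 6 reads in the same order, and just outside it the tile at 38152001 held 7, 23, 6 and 6. The tile that crosses the upper border, at 38148001, held 8, 35, 23 and 11. It was called for H3K27me3 (3.23, 1.60 to 7.05; exact test, adjusted p = 0.0390) and counts with neither the region's tiles nor those of the flanks. These single tiles are too shallow to show whether H3K9me3 or H3K4me3 has a step at either border. H3K27me3 was high on both sides of the upper one.

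A single region tile was called for H3K27me3, 0.321% of 312, against 0.624% of tiles over the genome. The flanks had 12 and 9 called tiles of 250 each (4.80% and 3.6%). The called tile, at 37268001, held 58 H3K27me3, 62 H3K4me3, 29 H3K9me3 and 11 WCE reads. Its H3K27me3 ratio was 5.35 (2.78 to 11.3; exact test, adjusted p = 3.63e-06) and its H3K4me3 ratio 5.44 (2.84 to 11.5; adjusted p = 7.23e-08). It was the only region tile called for both of these marks. H3K9me3 stood at 3.74 times WCE (1.81 to 8.29) there and was not called.

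The marks lay at nearly the same place in this tile. H3K4me3 and H3K27me3 both had their highest 500 bp from 37269501, with 30 and 14 reads, and H3K27me3 again had 14 reads in the next 500 bp. H3K9me3 was highest from 37270001, with 8 reads. WCE had at most 3 reads in any 500 bp of the tile. H3K27me3 was 0.984 times H3K4me3 (0.676 to 1.43) in a direct comparison. Pooled reads do not separate both marks on the same chromosomes from marks in different cells.

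H3K4me3 lay in narrow peaks that were few in the interior and dense toward the ends. Of 312 region tiles 15 were called (4.81%), against 2.33% of tiles over the genome, 20 of 250 (8.0%) in the lower-coordinate flank and 10 of 250 (4.0%) in the other. The 15 tiles held 1352 H3K4me3 and 257 WCE reads, and 53.8% of the region's H3K4me3 reads. In the 250 kb segments the ratio was 1.33 (1.12 to 1.57), 0.895 (0.740 to 1.08), 1.1 (0.911 to 1.32), 1.07 (0.908 to 1.26) and 2.21 (2.01 to 2.44). Scaling by 100 kb bins put all 5 above 1, between 1.57 and 3.88.

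At the low end, the tile at 36908001 held 166 H3K4me3 reads against 34 in WCE (4.71, 3.24 to 7.03; exact test, adjusted p = 3.78e-19), with 7 H3K9me3 and 7 H3K27me3 reads. The tile at 36924001 held 37 H3K4me3 and 9 WCE reads (exact test, adjusted p = 0.00164). After these came a long stretch low in the mark. From 36950001 to 37250000, 300 kb, there were 66 H3K4me3 and 208 WCE reads, a ratio of 0.306 (0.228 to 0.406). These 300 kb were picked after the values were seen, so a low ratio follows in part from the choice. The 50 kb segment from 36950001 had 4 H3K4me3 and 29 WCE reads (0.133, 0.0340 to 0.379). Over autosomal 50 kb segments the median H3K4me3 ratio was 0.559, so a ratio under 1 is usual for this mark away from peaks. Reads with 2 positions did not show the low level in these 300 kb, with 31 H3K4me3 and 34 WCE reads (0.880, 0.523 to 1.47). That ratio was scaled by the autosomal totals of reads with 1 position. Over the autosomes, reads with 2 positions made up 4.75% of the listed H3K4me3 reads and 5.56% of WCE. In the same 300 kb, H3K9me3 stood at 1.22 (0.993 to 1.5) and H3K27me3 at 0.849 (0.690 to 1.04).

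In the interior, 3 tiles were called for H3K4me3. Besides that at 37268001, these were 37604001, with 37 H3K4me3 and 5 WCE reads (7.14, 2.80 to 23.3; exact test, adjusted p = 2.17e-05), and 37768001, with 69 and 12 (5.55, 2.98 to 11.3; adjusted p = 6.65e-09). The marks differed between these tiles. H3K27me3 had 4 reads at 37604001 and 10 at 37768001, near WCE, so neither shared the H3K27me3 of 37268001. H3K9me3 had 13 reads at 37604001 (3.68, 1.23 to 13.2) and 7 at 37768001 (0.827, 0.276 to 2.28).

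The strongest H3K4me3 tile, at 37932001, held 350 H3K4me3 and 31 WCE reads (10.9, 7.53 to 16.3; exact test, adjusted p = 2.82e-63). It had 32 H3K9me3 reads (1.46, 0.864 to 2.48) and 19 H3K27me3 reads (0.622, 0.332 to 1.14). It lies beyond the end of the H3K9me3 run, and 1 tile separates it from the called H3K9me3 tiles. Together, the 32 kb from 37932001 to 37964000 held 645 H3K4me3 and 136 WCE reads (4.58, 3.80 to 5.55), with H3K9me3 at 1.94 (1.55 to 2.44) and H3K27me3 at 0.709 (0.540 to 0.928). H3K9me3 and H3K4me3 both had a ratio over 1 in 6 of the 8 tiles of these 32 kb, and those 6 held 166 of the 186 H3K9me3 reads. Of the 6, only the tiles at 37940001 and 37944001 had an H3K9me3 interval wholly above 1. The 32 kb were picked after the values were seen, and no share of such tiles elsewhere stands beside this count.

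Further on, H3K4me3 was called at 38060001 (73 against 18 WCE reads; exact test, adjusted p = 4.09e-07), at 38080001 (155 against 29; adjusted p = 3.86e-19) and at 38092001 (85 against 15; adjusted p = 6.66e-11). H3K27me3 was low at 38060001, with 2 reads (0.113, 0.0127 to 0.471). H3K9me3 was near or below WCE in all 3, with 11, 16 and 6 reads. WCE reads were also more numerous in called H3K4me3 tiles than in the median region tile, which held 4, and their part in the ratios was not tested.

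**Figure D4:**
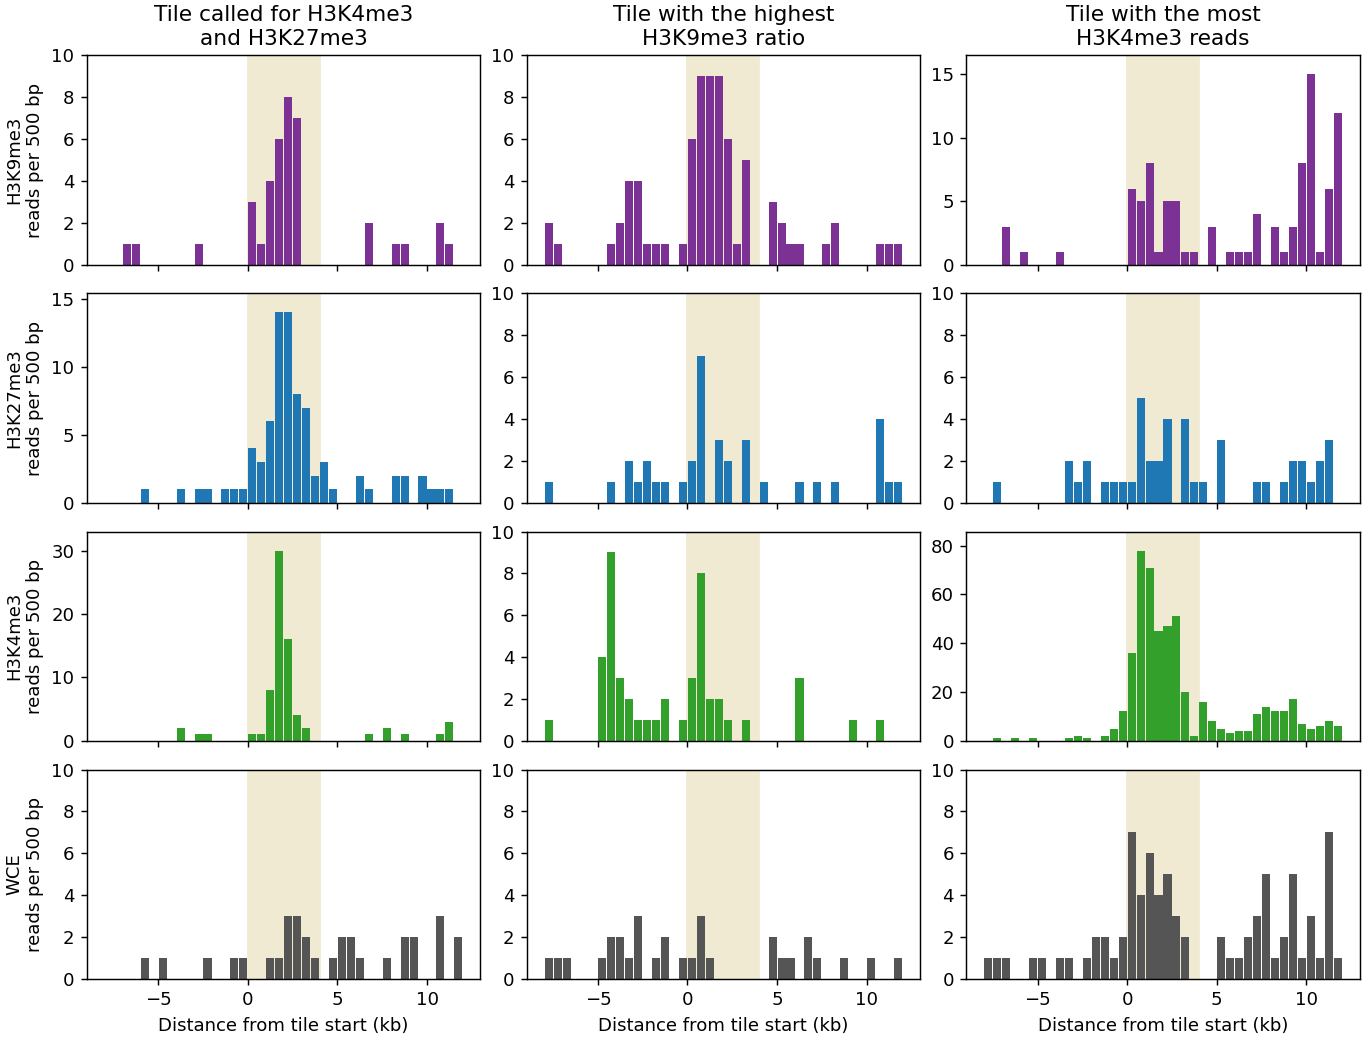
Reads per 500 bp in each library (rows) against distance in kb from the start of 3 tiles (columns, tile shaded): 37268001, 37892001 and 37932001. All 3 marks rise within the first tile, H3K9me3 spreads over most of the second, and H3K4me3 reaches 78 reads per 500 bp in the third, where H3K9me3 rises further along, at 10 kb.

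Of 312 region tiles, 17 were called for at least 1 mark, 2 for more than 1 and 0 for all 3. No share over the genome stands beside these counts, so nothing is read from them. Across the 312 tiles, counts of H3K9me3 and H3K27me3 had a Pearson r of 0.545, H3K9me3 and H3K4me3 0.454, and H3K27me3 and H3K4me3 0.386. With WCE counts, r was 0.540 for H3K9me3, 0.582 for H3K27me3 and 0.680 for H3K4me3. These values describe the tiles, which share depth, mappability and base composition within each library and are not replicates.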

How the data were processed

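Per the file headers, the authors aligned reads to mm8 with Bowtie, options e 70, k 2, m 2, n 2 and l 36; the version is not given in the sources used here. The deposited files hold signed read positions, a minus sign marking the reverse strand. Reads matching over 2 places were dropped, and repeats were kept. Per the labels' protocols, chromatin averaged 500 bp, with 18 PCR cycles and inserts of 50 to 200 nt.

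Reads with 1 position were collapsed to 1 per position and strand, shifted 60 bp and counted in 4 kb tiles. Repeats were 5.92 to 8.40% of them per library. Region-to-flank ratios have exact conditional intervals of the 2 by 2 read counts. The tile test was tested on simulated counts that vary by counting error only, which does not show how it performs where libraries differ in other ways. Named tiles were the called ones (at most 12 per mark, those with the highest log2 ratio after adding 1 read, with at least 20 mark reads) and the 5 with most reads. Members, segments and lists were chosen with earlier results of these data known, and the runs and spans after seeing the values. Tools were scipy 1.17.1 and numpy 2.4.6 under Python 3.11.15, with figures from matplotlib 3.10.9. No sequence of this region is reported here.

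Alternatives tried, 1 at a time, were keeping repeats, other shifts, tile sizes and thresholds, no minimum ratio, scaling by 100 kb bins, a uniform background, other flanks, adding reads with 2 positions, and leaving out the strongest or the called tiles. The names and order of genes came from RefSeq, without coordinates.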

Additional observations from a re-analysis of the deposited data

Results flagged for a closer look

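Reads with 2 positions, which lie outside the main counts, were called above WCE for H3K9me3 in 1 region tile, and were more numerous than in WCE in others. At 37868001 there were 31 such H3K9me3 reads and 8 WCE reads, a ratio of 5.49 after scaling to the autosomal totals of reads with 1 position. The call rule of the main counts was applied to these reads after the design was set. The tile lies in the H3K9me3 run, near the tile known when the region was proposed, so this is a description only. Of region tiles with such reads of the mark or WCE, 149 were tested for H3K9me3, and 0.0103% of such tiles were called over the genome. The same tile held 12 H3K9me3 and 7 WCE reads with 1 position. No region tile was called from such reads for H3K27me3 (132 tested, 0.0228% called over the genome) or H3K4me3 (122 tested, 0.422% called over the genome).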

How the results depend on the processing

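No paired analysis was possible because each group holds 1 library, and none could be left out. For H3K9me3, the region's ratio was 1.43 with reads of 1 and 2 positions, and 1.06 without 37800001 to 37960000 (chosen after seeing the data), where its ratio to the flanks was 1.05. The 3 called H3K9me3 tiles became 1 at an adjusted p under 0.01, 0 with 1 kb tiles and 42 against a uniform background. For H3K27me3, the 1 called tile became 0 with 1 kb tiles and 22 against a uniform background, and the ratio to the flanks was 0.744 with flanks of 500 kb. For H3K4me3, the 15 called tiles became 33 against a uniform background and 25 under bin scaling (by the median of 100 kb bins). Over the genome the uniform background called 7.16%, 11.6% and 6.56% of tiles for H3K9me3, H3K27me3 and H3K4me3, bin scaling called 3.33% for H3K4me3, 1 kb tiles 0.00117% and 0.0418% for H3K9me3 and H3K27me3, and an adjusted p under 0.01 called 0.00888% for H3K9me3. The H3K4me3 ratio was 1.34 without the tile with most reads. Its ratio to the flanks was 0.923 with flanks of 500 kb, 0.970 against the lower-coordinate flank, 1.33 against the other and 0.991 without the tile with most reads. Bin scaling raised log2 ratios by 0.08 for H3K9me3, 0.31 for H3K27me3 and 0.81 for H3K4me3. H3K27me3 then stood at 1.11 in the region and 0.975, 1.29, 1.01, 0.943 and 1.21 in the 250 kb segments, and H3K4me3 at 2.67 and 2.33, 1.57, 1.92, 1.87 and 3.88. The cause of these moves was not tested. The called tiles named for a mark were called again with all reads kept, with no shift and with a shift of 100 bp. With a median of 4 WCE reads per tile, depth limits single tiles to large differences.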
